A study of Caenorhabditis elegans with 8 samples.

Results

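A set of C. elegans genes for the oocyte surface, yolk uptake and the eggshell was followed through development: egg-1, egg-2, cbd-1, rme-2, chs-1, cpg-1 and cpg-2. They were chosen by name as 7 of the 25509 genes in the deposited expression table, and all 7 were found and passed the filter on low values. In young adults the 7 genes stood at mean levels of 44.7 to 442 FPKM in total RNA, and no larval mean of total RNA exceeded 8.93 FPKM. FPKM is fragments per kilobase of gene length, scaled to the reads of the library, so levels of different genes can be set beside each other.

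The oocyte of C. elegans grows in the adult gonad, fills with yolk made in the intestine, and passes through the spermatheca, where it is fertilised. EGG-1 and EGG-2 are related proteins of the oocyte membrane with LDL-receptor repeats, and sperm entry needs at least one of them. RME-2, a member of the LDL receptor family, is the receptor through which the oocyte takes up yolk. CBD-1, a protein with chitin-binding domains, belongs to the vitelline layer that lies outermost on the egg. CHS-1 is the chitin synthase of the eggshell, and CPG-1 and CPG-2 are chondroitin proteoglycans that bind chitin and form the layer beneath it.

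In the ce10 coordinates of the table, egg-1 (B0244.8) spans 5728132 to 5730348 of chromosome III, egg-2 (R01H2.3) spans 7058458 to 7060537, cpg-1 (C07G2.1) spans 4489326 to 4491366, and cpg-2 (B0280.5) spans 7102024 to 7103930 of the same chromosome. On chromosome IV lie cbd-1 (H02I12.1), from 11372967 to 11377578, and rme-2 (T11F8.3), from 5469986 to 5473166. chs-1 (T25G3.2) lies on chromosome I from 7554888 to 7559912. All are protein-coding genes with 3 to 11 exons per transcript in the WBcel235 annotation, which was matched by name.

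The worms were wild type, strain Bristol N2, synchronised with hypochlorite and grown in liquid culture at 20 °C, with no transgene or treatment. Embryos were of mixed stages, collected straight after the hypochlorite step; L1-L2 larvae were a volume mixture from 6 to 20 h of culture; L3-L4 larvae were the corresponding mixture from 28 to 42 h; and young adults were taken at 50 to 54 h. Each larval pool held 5 parts of each of its stages between moults and 2 parts of moulting animals. From each of the 4 stages, total RNA and dsRIP RNA were sequenced, the latter being the fraction pulled down with the J2 antibody against double-stranded RNA, which gives 8 samples with 1 per group.

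The table holds 3 numbered columns for each sample. The labels do not say whether these are separate cultures or technical repeats, so an SD or a p-value taken over columns measures only the spread between numbered columns, which may be technical. The 24 columns held 348064 to 914442 reads each (median 527607). The embryo and young adult labels were checked against markers: the summed level of 8 zygotic embryo genes was 88.9 to 133 FPKM in the 6 embryo columns, and at most 19.6 FPKM in any column of another stage. The collagen gene col-19, a marker of the adult cuticle, had a mean of 0 FPKM in embryo and L1-L2 total RNA and stood at 548 to 1159 FPKM in the young adult total RNA columns. Larval labels were not checked in this way, since the moulting markers differed among themselves. In total RNA mlt-10 read 120 ± 30.4 FPKM in embryos, 48.2 ± 25.3 in L1-L2 and 66.9 ± 22.6 in L3-L4 larvae, and mlt-11 was also highest in embryos. Against that, rol-6 read 0 in embryos, 144 ± 140 in L1-L2 and 86.4 ± 10.3 in L3-L4 larvae. The sum of 10 oocyte and germline markers was 1199 ± 297 FPKM in young adults, 757 ± 155 in embryos, 275 ± 65.4 in L3-L4 larvae and 115 ± 10.1 in L1-L2 larvae (total RNA, SD over 3 columns).

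The sperm-entry genes egg-1 and egg-2 were close to the detection limit outside young adults. egg-1 read 49.7, 94.6 and 131 FPKM in the 3 young adult columns of total RNA, against 4.96, 2.40 and 5.20 in embryos. In L1-L2 larvae it read 0, 2.64 and 0.84 FPKM, and in L3-L4 larvae 0.63, 0.69 and 0.94, which rests on 3 reads in each larval sample. Every young adult column therefore lay above every other column. egg-2 read 18.1, 37.5 and 78.5 FPKM in young adults and 3.58, 7.27 and 6.29 in embryos. In larvae egg-2 read 1.83, 0 and 1.70 FPKM at L1-L2 and 1.91, 1.40 and 0.95 at L3-L4, again without overlap with young adults. In dsRIP RNA young adults were again highest, with egg-1 at 68.0, 105 and 62.2 FPKM and egg-2 at 43.7, 38.4 and 33.3 FPKM. Below them the order of the stages differed from that of total RNA, on few reads. The dsRIP mean of egg-2 was 2.24 FPKM in L3-L4 larvae and 1.40 in embryos, and that of egg-1 was 2.21 in L3-L4 and 0.86 in L1-L2 larvae. In L1-L2 dsRIP RNA egg-2 had 0 reads in all 3 columns, so young adults were at least 28.7-fold higher when the floor of 3 reads over the group stands for 0. Reads shared by these related genes could have been split between them in counting, and the rule the authors used is not given in the sources used here.

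rme-2, the yolk receptor gene, read 48.5, 129 and 162 FPKM in young adult total RNA. In embryos it read 2.21, 1.99 and 8.41 FPKM, in L1-L2 larvae 0, 1.64 and 2.62, and in L3-L4 larvae 1.96, 2.59 and 4.11. The 9 columns of the other stages thus stayed at or under 8.41 FPKM, and the lowest young adult column was 5.77 times the highest of them. In dsRIP RNA the young adult columns read 92.4, 137 and 82.9 FPKM and the highest other column 8.92 FPKM.

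cbd-1, the vitelline layer gene, read 99.6, 278 and 340 FPKM in young adults. Embryo columns read 14.9, 18.9 and 49.1 FPKM, L1-L2 columns 1.82, 3.97 and 6.53, and L3-L4 columns 8.67, 8.37 and 9.75. cbd-1 was the single member whose L3-L4 columns all lay above its L1-L2 columns in total RNA (1 of 7 genes, where 6.23% of all 20628 tested features did so). In dsRIP RNA cbd-1 read 188, 292 and 153 FPKM in young adults, with embryos at 13.3, 10.5 and 47.2.

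chs-1, the chitin synthase gene, had a low, even level before adulthood. It read 47.3, 64.9 and 130 FPKM in young adults. Embryos read 8.83, 6.65 and 7.34 FPKM, L1-L2 larvae 7.80, 4.38 and 5.25, and L3-L4 larvae 7.06, 5.48 and 7.06, so the columns of these 3 stages overlapped. The larval means were 7.22% and 8.11% of the young adult mean in total RNA, where the other 6 genes had 0.824% to 3.73%. Its span shares 80 bp with the neighbouring gene T25G3.3 on the same strand, which had means of 66.6 to 119 FPKM in the 4 stages. At that level and with even coverage 80 bp would hold 16.3 of the 54 reads counted for chs-1 in L1-L2 larvae, 17.1 of 64 in L3-L4 larvae and 19.6 of 693 in young adults; how the authors assigned such reads is not given in the sources used here, and their part in the larval level was not tested.

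The proteoglycan genes cpg-1 and cpg-2 had the highest levels of the set in young adults. cpg-1 read 127, 407 and 388 FPKM in young adults and 28.3, 17.5 and 98.9 in embryos. Larval columns of cpg-1 read 4.61, 5.02 and 5.62 FPKM at L1-L2 and 6.59, 4.63 and 0.90 at L3-L4. Of the 7 genes cpg-1 came nearest to an overlap between embryos and young adults, its lowest young adult column being 1.29 times its highest embryo column. cpg-2 read 219, 559 and 550 FPKM in young adults and 11.1, 15.02 and 49.8 in embryos. Larval columns of cpg-2 read 2.53, 4.12 and 7.03 FPKM at L1-L2 and 5.91, 15.2 and 1.97 at L3-L4. Embryos therefore held more cpg-1 than cpg-2, and young adults more cpg-2 than cpg-1. In young adult dsRIP RNA cpg-1 read 265, 439 and 219 FPKM and cpg-2 404, 642 and 368 FPKM.

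**Figure D1:**
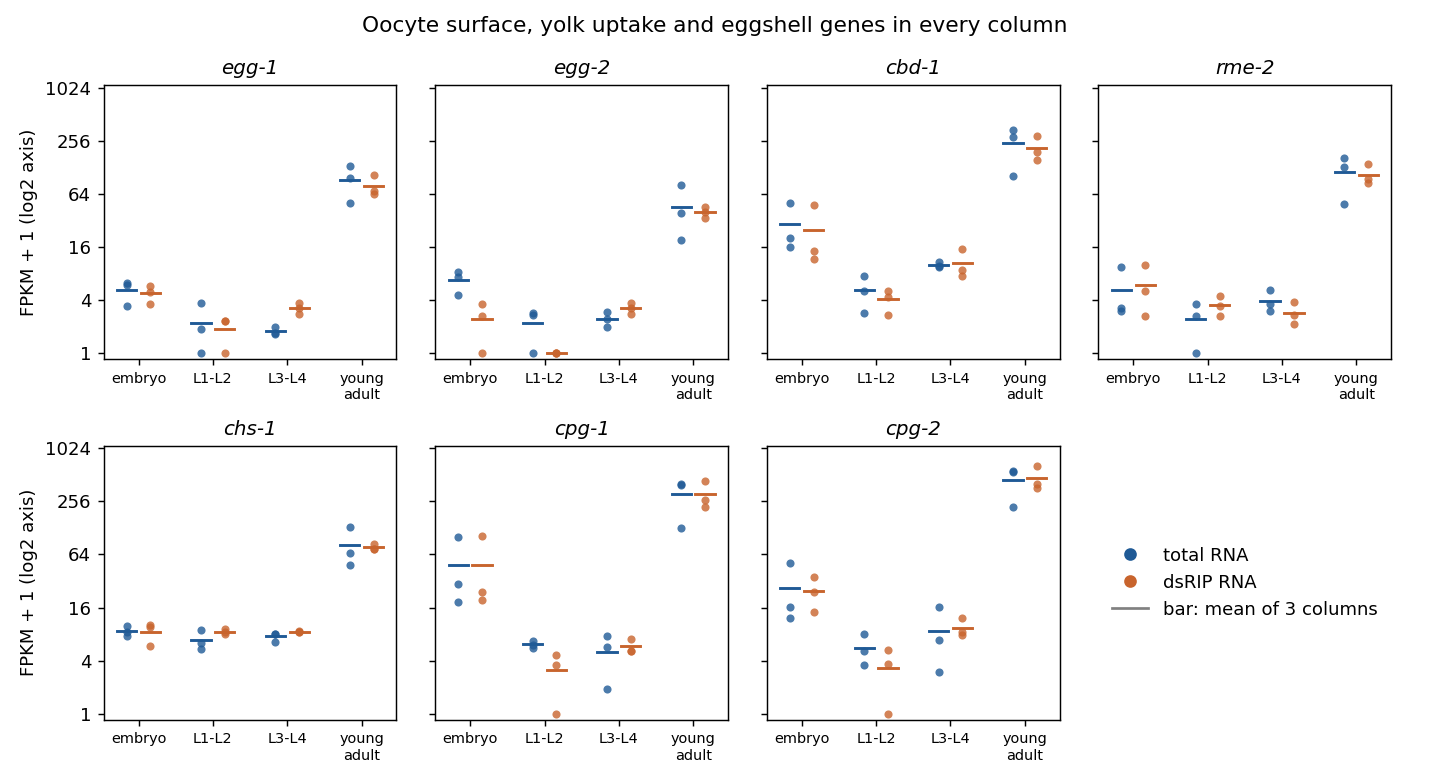
FPKM + 1 of each gene (log2 axis) in the 3 numbered columns of each stage, total RNA in blue and dsRIP RNA in orange, with bars at the mean of 3 columns. For all 7 genes the young adult points lie above every point of the other stages in both kinds of RNA, by the smallest margin for cpg-1.

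All 7 genes were higher in young adults than at each other stage. A fold was taken on log2(mean FPKM + 1), which understates the change of genes near 0, and at least 4-fold was counted as a difference. Against L1-L2 larvae 7 of 7 passed, from 12.0-fold for chs-1 to 79.7-fold for cpg-2, where 9.56% of all tested features were that much higher. Against L3-L4 larvae 7 of 7 passed, from 10.8-fold for chs-1 to 61.2-fold for cpg-1 (7.21% of all features). Against embryos 7 of 7 passed, from 6.27-fold for cpg-1 to 21.9-fold for rme-2 (12.4% of all features). The median log2 fold of the 7 genes was 5.56, 4.87 and 3.24 in these comparisons, beside -0.12, 0 and -0.02 over all features. The comparisons share the young adult sample and are not independent of each other. In whole worms, fewer cells of a type and less RNA per cell cannot be told apart.

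Young adult columns lay above those of the other stage for 7 of 7 genes in each of these comparisons in total RNA, as did 14.5%, 12.2% and 17.8% of all features for L1-L2, L3-L4 and embryos, and for 7 of 7 in each in dsRIP RNA, as did 17.1%, 16.2% and 16.7% of features. A limma fit over the 24 columns compared the stages in total RNA, with Benjamini-Hochberg adjustment over all 20628 features. Stage differences in dsRIP RNA were not tested. In this fit 7 of 7 genes were higher in young adults in each comparison, beside 11.3%, 6.55% and 14.8% of features. The adjusted p ran from 1.19e-07 for egg-1 to 1.40e-05 for cpg-1 against L1-L2 larvae, from 1.37e-07 for egg-1 to 4.50e-05 for egg-2 against L3-L4 larvae, and from 4.16e-07 for chs-1 to 0.00367 for cpg-1 against embryos. For cpg-1 against embryos the fitted log2 difference was 2.85 ± 0.71 (SE). That call depends on the columns: without column 2 of every sample the difference was 2.05 with an adjusted p of 0.169.

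The folds in dsRIP RNA passed for 7 of 7 genes in the same 3 comparisons (10.7%, 7.82% and 12.6% of all features). They ran from 9.16-fold for chs-1 to 143-fold for cpg-2 against L1-L2 larvae, from 9.11-fold for chs-1 to 53.3-fold for cpg-1 against L3-L4 larvae, and from 6.33-fold for cpg-1 to 19.1-fold for cpg-2 against embryos. chs-1 had the smallest fold against both larval stages in both kinds of RNA. cpg-1 had the smallest against embryos in both, but in total RNA without embryo column 3 the smallest was that of egg-2, at 7.11-fold, followed by chs-1 at 9.33-fold and cpg-1 at 12.9-fold.

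Between the 2 larval stages no member passed the fold limit in either kind of RNA, or the fit, which compared total RNA only. L3-L4 larvae were at least 4-fold higher than L1-L2 larvae for 0 of 7 genes in total RNA (3.3% of all features) and 0 of 7 in dsRIP RNA (3.91%). The limma fit over columns called 0 of 7 genes higher (0.795% of features), with the lowest adjusted p, 0.438, for cbd-1. At an unadjusted p under 0.05 the count was likewise 0. The 95% intervals of the log2 difference were wide, from -0.10 to 2.23 for cbd-1 and from -0.50 to 0.84 for chs-1. In dsRIP RNA the L3-L4 columns lay above the L1-L2 columns for 5 of 7 genes (5.92% of features), cbd-1 among them, and those 5 rested on at most 30 reads in any larval column.

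**Figure D2:**
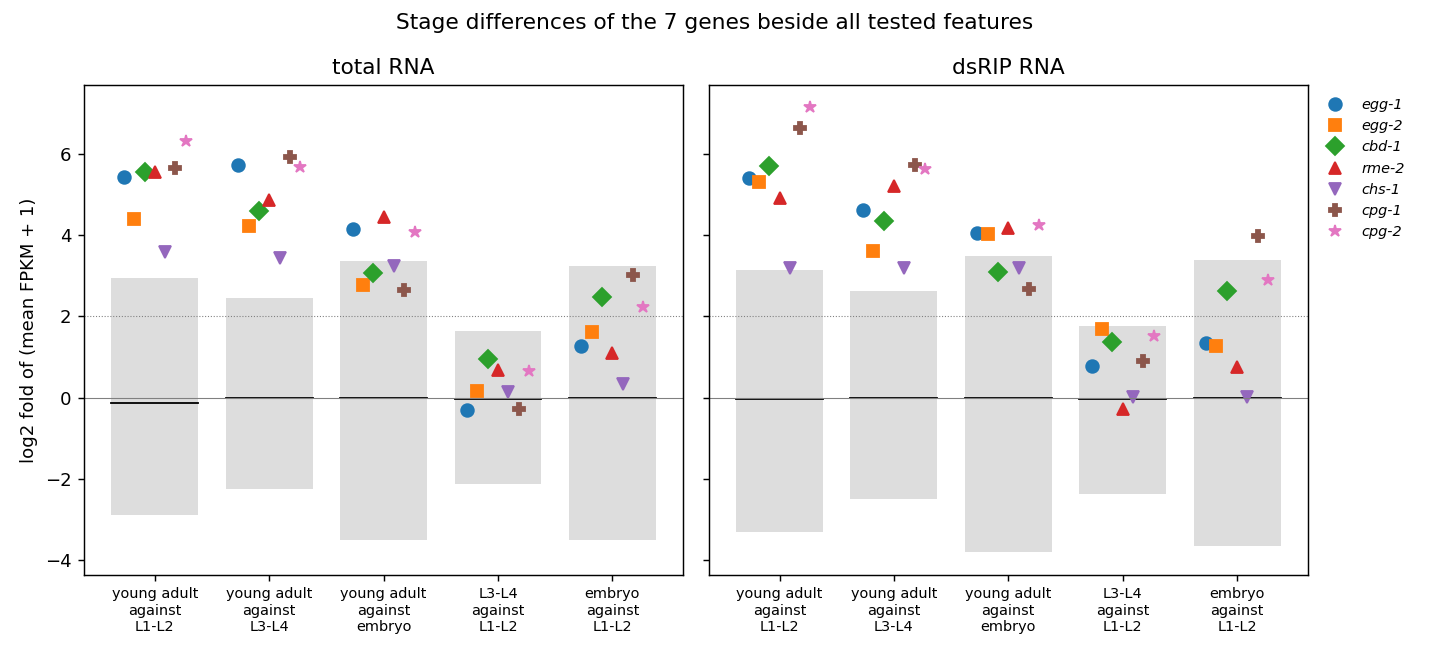
Log2 fold of (mean FPKM + 1) for the 7 genes in the 5 stage comparisons, total RNA left and dsRIP RNA right; grey bars span the 5th to 95th percentile of all 20628 tested features, black lines their median, and the dotted line 4-fold. All 7 genes lie above the dotted line in the 3 comparisons of young adults and below it for L3-L4 against L1-L2 larvae.

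Embryos held a part of the young adult level that differed between the members. In total RNA the embryo mean was 15.7% of the young adult mean for cpg-1, 12.8% for egg-2, 11.6% for cbd-1, 9.44% for chs-1, 5.72% for cpg-2, 4.56% for egg-1 and 3.72% for rme-2. In dsRIP RNA the shares were 15.5% for cpg-1, 11.2% for cbd-1 and 9.84% for chs-1, and 3.64% to 5.02% for the other 4 genes. egg-2 was the member whose share differed most between the kinds of RNA, and it rested on 20 reads of total RNA and 3 of dsRIP RNA from embryos.

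Embryos were at least 4-fold higher than L1-L2 larvae for 3 of 7 genes in total RNA (11.6% of all features): cpg-1 at 8.09-fold, cbd-1 at 5.61-fold and cpg-2 at 4.73-fold. The same 3 genes passed in dsRIP RNA, at 15.8-fold, 6.12-fold and 7.46-fold (12.9% of all features). Embryo columns lay above L1-L2 columns for 4 of 7 genes in total RNA (23.6% of all features) and for 4 of 7 in dsRIP RNA (21.3%). The limma fit over columns called 5 of 7 genes higher in embryos (17.6% of features); rme-2 had an adjusted p of 0.176 and chs-1 of 0.428. The total RNA counts depended on the third embryo column, without which 0 of 7 genes were 4-fold higher and 1 of 7, cbd-1, passed in the fit. Without that column cpg-1 and cbd-1 lay just under the log2 limit of 2, at 1.98 and 1.81. The fitted log2 difference of egg-1 then went from 1.41 to 1.26 and that of egg-2 from 1.72 to 1.64, with adjusted p of 0.102 and 0.0582 in limma. That of cpg-1 went from 2.64 to 1.94 and that of cpg-2 from 2.03 to 1.40, with adjusted p of 0.0548 and 0.139 in limma. Leaving 1 numbered column out of every sample gave 2 or 3 in the fit. The count of 4-fold differences in dsRIP RNA was then also 2 or 3, and cbd-1 fell as low as 1.73 on the log2 scale.

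Column 3 was the embryo column in which 4 of the 7 genes were far above the others. Relative to the mean of the 3 columns, column 3 of total RNA stood at 2.05 for cpg-1, 2.00 for rme-2, 1.97 for cpg-2 and 1.78 for cbd-1, beside 1.24 for egg-1, 1.10 for egg-2 and 0.964 for chs-1. The same column number of dsRIP RNA stood at 2.13 for cpg-1, 2.00 for cbd-1, 1.84 for rme-2 and 1.47 for cpg-2. In that total RNA column the sum of the oocyte and germline markers was 0.969 of its mean, that of the other eggshell genes 1.11, and that of the zygotic embryo markers 0.828. Such sums follow their most abundant genes, as pos-1 at 287 ± 93.1 FPKM and fasn-1 at 319 ± 30.4 in embryo total RNA. Single genes of these lists, named after their values were seen, also spread widely over the embryo columns: oma-2 at 20.6 ± 18.9 FPKM and pod-1 at 61.3 ± 42.1. Others were even, as cpg-3 at 9.61 ± 1.24. The part of such differences between columns in the embryo levels was not tested. Without column 3 the embryo mean in total RNA was 7.46% of the young adult mean for cpg-1, 7.08% for cbd-1, 2.95% for cpg-2 and 1.86% for rme-2, and the folds of young adults over embryos became 12.9 for cpg-1, 13.4 for cbd-1, 31.6 for cpg-2 and 36.8 for rme-2.

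Column 1 of young adult total RNA stood low for every member. It was the lowest column for 7 of 7 genes, at 0.405 of the mean for egg-2 to 0.587 for chs-1. How many of all features were lowest there was not counted. In that column the sum of the 6 yolk protein genes, which the adult intestine expresses, was 0.205 of its mean, and that of the oocyte and germline markers was 0.756. The sum of 7 sperm markers was 1.59 of its mean and that of 6 moulting markers 1.31, with col-19 at 0.670. The sum of the zygotic embryo markers was 0.292, 0.450 and 2.26 of its mean in the 3 columns, or 2.54, 3.91 and 19.6 FPKM. In dsRIP RNA column 2 was the highest for 5 of the 7 genes, at 1.32 for rme-2 to 1.43 for cpg-1, with the yolk protein sum at 1.44; egg-2 and chs-1 were highest in column 1. The part of these differences in the young adult levels was not tested. Leaving out column 1 of young adult total RNA, the lowest for every member, can only raise the young adult means. That 7 of 7 genes still passed the fold limit without it was therefore fixed in advance.

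**Figure D3:**
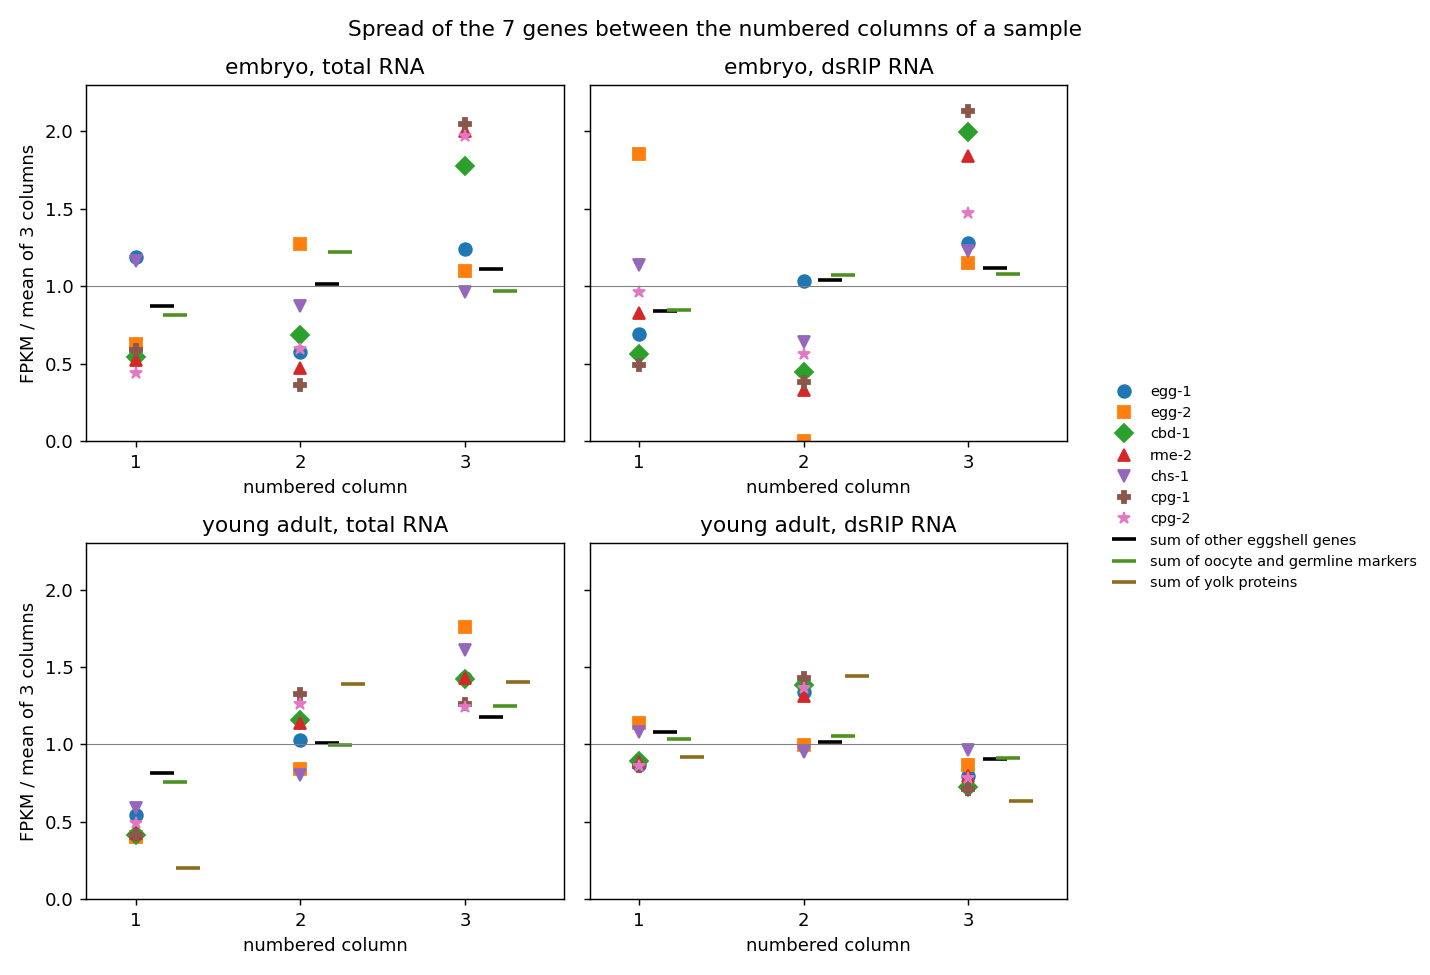
FPKM of each gene in the numbered columns divided by the mean of the 3 columns, for embryos (top) and young adults (bottom), with dashes for the summed levels of other lists shown to the right of each column; the yolk protein sum is drawn for young adults, since it was at most 7.43 FPKM in any embryo column. In young adult total RNA all 7 genes are lowest in column 1, and in embryos cpg-1, rme-2, cpg-2 and cbd-1 are highest in column 3.

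The ratio between the proteoglycan genes turned between embryos and young adults. Per length, cpg-2 had 0.524 times the reads of cpg-1 in embryo total RNA (95% exact binomial interval 0.396 to 0.690, from 79 and 165 reads). In young adult total RNA it had 1.45 times (1.34 to 1.57, from 1453 and 1095 reads). The dsRIP values were 0.521 (0.361 to 0.741) in embryos and 1.53 (1.39 to 1.68) in young adults. All 6 embryo columns gave a ratio under 1, from 0.343 to 0.980, and all 6 young adult columns one above it, from 1.37 to 1.72. Intervals of this kind cover counting error only, and the change over samples was not tested, with 1 sample per stage. Without embryo column 3 the ratio of the mean FPKM in embryo total RNA was 0.569, beside 0.525 with it.

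For the related pair egg-1 and egg-2, egg-1 was the higher in young adults, at 2.04 times egg-2 per length in total RNA (1.68 to 2.49) and 2.09 times in dsRIP RNA (1.61 to 2.73). In embryos the ratio was 0.743 in total RNA (0.354 to 1.53), an interval that holds 1 and lies below that of young adults. In embryo dsRIP RNA it was 2.64 (0.634 to 15.5), from 8 and 3 reads, which does not allow an order to be read. Larval intervals all included 1. The egg-1 span shares 275 bp with B0244.9 on the other strand, which had means of at most 5.30 FPKM.

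The ratio of cbd-1 to chs-1 depended on the column as well as on the stage. Per length cbd-1 had 2.85 times the reads of chs-1 in young adults (2.62 to 3.12) and 3.31 times in embryos (2.50 to 4.42). In L1-L2 larvae the ratio was 0.613 (0.383 to 0.967), and in L3-L4 larvae it was 1.36 (0.970 to 1.91). The 3 L1-L2 columns of total RNA gave 0.234, 0.906 and 1.24, on both sides of 1, and those of dsRIP RNA 0.239, 0.557 and 0.414; the reads that chs-1 may share with T25G3.3 weigh most on its low larval counts. The embryo columns gave 1.69, 2.85 and 6.70, and without embryo column 3 the ratio of the mean FPKM was 2.188, beside 3.64 with it.

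**Figure D4:**
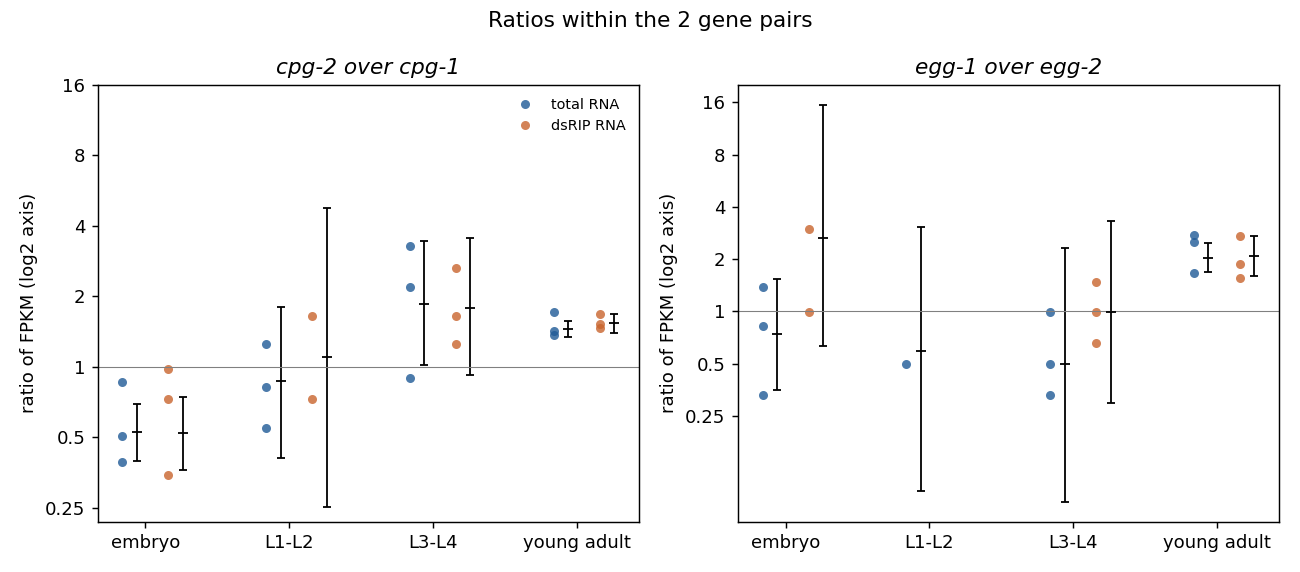
Ratio of FPKM within each pair (log2 axis) for every column in which both genes had reads, total RNA in blue and dsRIP RNA in orange; black bars give the ratio per length of the summed reads with its 95% exact binomial interval, which covers counting error only. The cpg-2 to cpg-1 ratio is under 1 in the embryo columns and above 1 in the young adult columns, and larval intervals are wide.

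Ordered by mean level in young adults, the members ran cpg-2 (442 ± 194 FPKM), cpg-1 (308 ± 156), cbd-1 (239 ± 124.9), rme-2 (113 ± 58.2), egg-1 (91.7 ± 40.8), chs-1 (80.6 ± 43.3) and egg-2 (44.7 ± 30.8; SD, n = 3 columns of total RNA). The ranges of each neighbouring pair overlapped. Within a column each gene was above the next in 3 of 3 columns, except that rme-2 was above egg-1 in 2 of 3. The order of the dsRIP means was the same, at 471 ± 149, 307 ± 116, 211 ± 72.5, 104 ± 28.8, 78.3 ± 22.98, 76.5 ± 5.45 and 38.4 ± 5.20 FPKM. Of these neighbours egg-1 was above chs-1 in 1 of 3 dsRIP columns, and each other gene above the next in 3 of 3. The dsRIP ranges of cbd-1 and rme-2 and those of chs-1 and egg-2 did not overlap. In embryos cpg-1 led, at 48.2 ± 44.2 FPKM in total RNA, and in L1-L2 larvae chs-1 led, at 5.81 ± 1.78 FPKM, though its columns overlapped those of cpg-1.

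No difference between dsRIP and total RNA was called for any of the 7 genes. In the limma fit over the 8 samples with stage as a block, 0 of 7 genes were called higher and 0 lower in dsRIP RNA, beside 2.11% of features higher and 2.12% lower. At an unadjusted p under 0.05 the count of members was also 0, beside 4760 features (23.1%). Limma-voom over the 24 columns, on whole reads recovered from the FPKM steps, called 0 members too. It called 2223 of all 20628 features higher and 1257 lower. The log2 difference of dsRIP from total RNA ran from -0.60 ± 0.39 (SE) for egg-2 to 0.10 ± 0.13 for chs-1, with a median of -0.16 beside -0.08 over all features. The 95% interval was -0.44 to 0.11 for cbd-1, -0.23 to 0.43 for chs-1, -0.61 to 0.29 for cpg-2 and -0.76 to 0.36 for cpg-1. It was -0.53 to 0.59 for rme-2, -0.62 to 0.77 for egg-1 and -1.60 to 0.40 for egg-2, and differences within these bounds remain possible.

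In young adults, where all members had at least 86 dsRIP reads, the log2 difference ran from -0.23 for egg-1 and -0.21 for egg-2 to 0.09 for cpg-2, with -0.18 for cbd-1, -0.12 for rme-2, -0.07 for chs-1 and -0.00 for cpg-1. These values depended on column 1 of young adult total RNA, which was low for every member. Without it they ran from -0.58 for egg-2 to -0.23 for cpg-2. Leaving out the lowest total RNA column of a gene can only lower its difference. The share of all features below 0 in that setting was not computed, so no lower level of the members in dsRIP RNA is read from it. The wider values came from samples with few reads: egg-2 had -1.48 in embryos and -1.12 in L1-L2 larvae, cpg-1 had -0.98 in L1-L2 larvae and egg-1 had 0.87 in L3-L4 larvae. Whether the difference changed between stages was tested in the fit over columns, where 0 of 7 genes passed for young adults against embryos or against L3-L4 larvae (0% of features higher and 0.00485% lower in each). The largest of these changes was that of egg-2 between embryos and young adults, at 1.64 ± 0.77 on the log2 scale with an unadjusted p of 0.0462 in limma and an adjusted p of 1; it was the single member with an unadjusted p under 0.05.

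The other genes of the eggshell and its permeability barrier did not all move in 1 direction. Of 16 listed and tested genes, the fit over columns called 11 higher and 2 lower in young adults than in L1-L2 larvae (11.3% and 14% of all features), 10 higher and 1 lower than in L3-L4 larvae (6.55% and 5.26%), and 7 higher and 2 lower than in embryos (14.8% and 19.2%). The median log2 fold was 3.09 against L1-L2 larvae and 1.17 against embryos. perm-2, needed for the permeability barrier, rose to 571 ± 170 FPKM in young adults from 0.861 ± 1.49 in embryos, and was listed at 0 in L1-L2 larvae. cpg-3, another chondroitin proteoglycan gene, stood at 319 ± 53.4 FPKM in young adults, 9.61 ± 1.24 in embryos and 1.59 ± 0.63 in L1-L2 larvae. The 2 genes that fell against L1-L2 larvae were fasn-1, the fatty acid synthase gene, from 281.1 ± 15.1 to 106 ± 5.22 FPKM, and emb-8, from 136 ± 41.3 to 72.0 ± 14.2. Against embryos fasn-1 and the kinase gene mbk-2 fell, and emb-8 and mbk-2 are named here after their values were seen. pod-2, which encodes an acetyl-CoA carboxylase, read 94.1 ± 58.2 FPKM in young adults and 106 ± 5.90 in L1-L2 larvae, with an adjusted p of 0.568 in limma.

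The yolk protein genes, whose products RME-2 takes up, were called higher in young adults by the fit over columns for 6 of 6 genes in every comparison. Of all features 11.3%, 6.55% and 14.8% were called higher against L1-L2 larvae, L3-L4 larvae and embryos. vit-6 stood at 1592 ± 1175 FPKM in young adult total RNA and vit-2 at 1139 ± 804, and each at no more than 6.38 FPKM at another stage. Of 12 genes of the general endocytic machinery, 1 was higher and 4 lower in young adults than in L1-L2 larvae (11.3% and 14% of all features), and 2 were higher and 5 lower than in embryos (14.8% and 19.2%). Against L3-L4 larvae limma called 0 higher and 0 lower (6.55% and 5.26% of all features). At an unadjusted p under 0.05 the counts were 0 higher and 3 lower, and the share of all features at that limit was not counted. aps-2, which encodes the small subunit of the clathrin adaptor AP-2, fell from 74.9 ± 4.11 FPKM in L1-L2 larvae and 181 ± 25.1 in embryos to 37.5 ± 5.14 in young adults. The higher gene against L1-L2 larvae, named after its values were seen, was rme-1, a recycling endosome gene, at 76.3 ± 7.33 FPKM against 49.4 ± 2.29, with an adjusted p of 0.0497 in limma. The clathrin heavy chain gene chc-1 read 103 ± 17.0 FPKM in young adults, 117 ± 17.6 in L1-L2 larvae and 89.3 ± 5.44 in embryos, and passed in no comparison of young adults. The median log2 fold of the endocytic genes was -0.19 against L1-L2 larvae and -0.69 against embryos, where that of the 7 members was 5.56 and 3.24.

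The share of the young adult level found in embryos varied widely over the other lists. It was 3.72% to 15.7% for the 7 genes, or 1.86% for rme-2 to 12.14% for egg-2 without embryo column 3, and 0.0299% to 0.103% for the 6 yolk genes. Among the oocyte and germline markers it was 5.99% for the helicase gene glh-1, 30.6% for pgl-1, 94.2% for spn-4 and 219% for pos-1, the last 2 encoding RNA-binding proteins that act in the early embryo. Eggshell genes lay on both sides of the members, with 0.151% for perm-2, 3.01% for cpg-3, 55.1% for pod-2 and 301% for fasn-1. These shares are descriptions of 1 sample per stage, without a test.

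**Figure D5:**
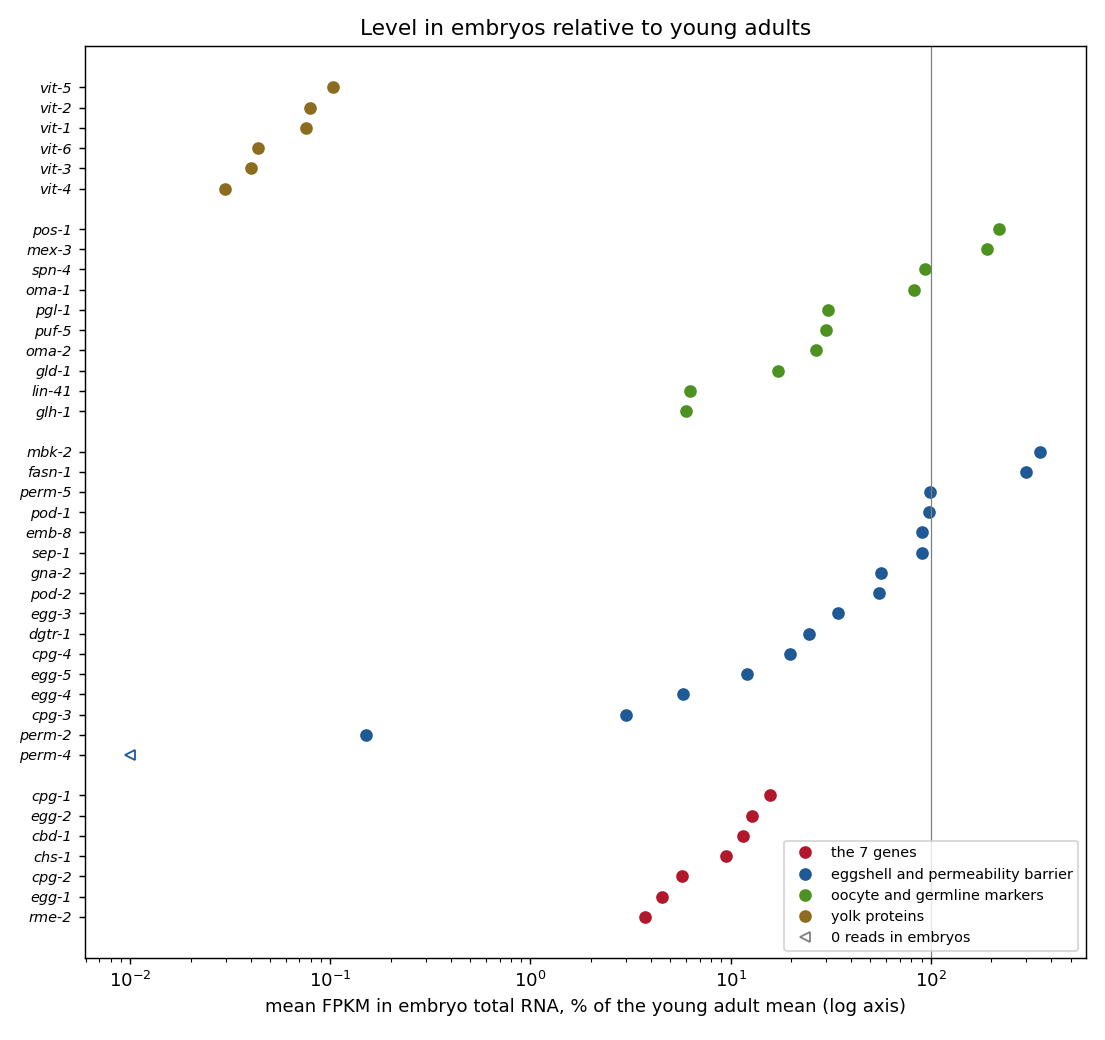
Mean FPKM of each gene in embryo total RNA as a percentage of its young adult mean (log axis), grouped by list; the open triangle marks a gene with 0 reads in embryos, placed at the left edge. The 7 genes lie between 3.72% and 15.7% (1.86% and 12.14% without embryo column 3), the 6 yolk genes at or under 0.103%, and the oocyte and germline markers from 5.99% upwards.

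The genes with profiles most like the mean of the 7 members over the 8 samples, by Pearson's r of log2(FPKM + 1) among 5304 genes with at least 50 FPKM in 1 sample, were cpg-3 (0.987), F59D8.3 (0.986), rpoa-12 (0.983), perm-1 (0.983), cpl-1 (0.982), gldi-5 (0.980), cyp-31A2 (0.975), mesp-1 (0.974), spch-1 (0.974) and B0001.4 (0.974). The measure ignores the size of a change: rpoa-12 moved only between 31.2 and 68.2 FPKM, while cpg-3 moved between 0.507 and 433 FPKM. The 8 points share 4 stages and their libraries, so r is given as a description. Taken singly, cbd-1 and cpg-2 were each other's nearest gene (r = 0.996), and the nearest to egg-1 was cpg-2 (0.982), followed by rme-2 and col-178. The nearest to cpg-1 were oma-2 (0.993), cyb-2.2 and puf-3, to rme-2 they were ule-3 (0.990), col-8 and chs-1, and to egg-2 they were F54E12.2 (0.985), cyp-31A2 and sqv-4. For chs-1 they were col-8 (0.998), C44B7.5 and ule-1, and for cbd-1 and cpg-2 the next nearest were gldi-5 (0.990) with puf-3 and rpoa-12 (0.990) with gldi-5.

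The series also lists editing-enriched regions, stretches of double-stranded RNA marked by clustered A-to-I editing. The spans of 0 of the 7 genes overlapped such a region on either strand, where 887 of 25509 genes (3.48%) did. The nearest region lay 10206 bp from cbd-1 and 27095 bp from chs-1, and at 44872 to 287255 bp from the other 5 genes.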

How the data were processed

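Total RNA and J2 dsRIP RNA of whole worms were sequenced from stranded libraries, per the labels' protocols, and the submitters' processing notes name Novoalign, bedtools 2.19.0, SAMtools 0.1.19 and the build ce10. The authors deposited FPKM for 27050 features in 24 columns, and 0 columns were left unmapped. The deposited region lists also hold a score, left unused here because no header explains it. The steps between FPKM values gave whole reads for 100% of values above 0 (tolerance 0.05), with a length searched for each feature. A filter (2 or more of the 8 samples with an FPKM of 1 or more) left 20628 features, tested on log2(FPKM + 1) with limma 3.58.1 (lmFit, eBayes with trend) in R 4.3.3, with p-values adjusted by Benjamini-Hochberg across every tested feature and called under 0.05. The fits were also run on simulated counts, with 1 fixed spread between columns and changes planted only in well-covered features. That run does not speak for genes with few reads or a wider spread. Stage folds used means of 3 columns. Symbols came from RefSeq, and from WBcel235 where RefSeq held none, by name only, for 24756 genes.

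The members and gene lists were chosen with earlier results of these data known. Beyond the members, the text names the genes nearest in profile and the most abundant 2 to 4 of each list, and says where a gene was named after its values were seen. Alternatives were pseudocounts of 0.5 and 5, no filter, equal medians, quantile normalisation, other blocks, no trend, voom, single columns or stage pairs left out, and a 2-fold limit.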

Additional observations from a re-analysis of the deposited data

How the results depend on the processing

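Under the alternatives run, 7 of 7 genes were higher in young adults than at each other stage, in total RNA, dsRIP RNA and the fit over columns, except that 6 of 7 passed against embryos in dsRIP RNA and in the fit when column 2 of every sample was left out. Between dsRIP and total RNA 0 of 7 were called in each alternative, but with a stage pair left out limma called 0 of all 20628 features, and without the stage block 13 higher and 10 lower, so these fits say nothing of stability. The count of genes 4-fold higher in embryos than in L1-L2 larvae moved from 3 to 1 with a pseudocount of 5 (to 1 in dsRIP RNA as well), to 6 with a 2-fold limit, and to between 0 and 4 with columns left out, the 0 being without the third embryo column of total RNA, a setting chosen after seeing the data, as was leaving out young adult total column 1. In the fit over columns the same comparison moved from 5 to 3 with a pseudocount of 5, and to between 1 and 5 with columns left out. The count for L3-L4 against L1-L2 larvae in dsRIP RNA moved from 0 to 1 with a pseudocount of 0.5, equal medians, quantile normalisation or column 2 left out.

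Some differences that passed no test changed sign. For dsRIP against total RNA, egg-1 was -0.00887 with a pseudocount of 5, and rme-2 was -0.00135 with that, -0.031 with equal medians and -0.028 with quantile normalisation; voom gave 0.063 for cpg-1 and 0.18 for cpg-2. With a stage pair or column left out, egg-1 ran from -0.19 to 0.18, rme-2 from -0.14 to 0.19, cpg-1 from -0.33 to 0.060 and cpg-2 from -0.25 to 0.040. For L3-L4 against L1-L2 larvae, egg-1 was 0.19 with equal medians, and with 1 column left out egg-1 ran from -0.51 to 0.39, egg-2 from -0.22 to 0.65, cpg-2 from -0.23 to 1.32 and cpg-1 from -0.95 to 0.17. Without young adult total column 1, the change of the dsRIP difference became -0.26 for cbd-1, -0.21 for chs-1, -0.38 for cpg-1 and -0.38 for cpg-2 against embryos, and -0.043 for rme-2 against L3-L4 larvae. The cause was not tested.

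Same-numbered total and dsRIP columns deviated together in embryos and larvae (r 0.276 to 0.554), but in young adults r ran from -0.085 to 0.470, so not every pair deviated together and the numbers were not taken as pairs. In young adults total column 1 went rather with dsRIP column 3 (r 0.224) and total column 3 with dsRIP column 1 (r 0.319). Their same-numbered values were -0.085 and 0.011. Total RNA of L3-L4 larvae and young adults also deviated together by number (r 0.244 to 0.288). Within same-numbered L3-L4 pairs the log2 dsRIP difference, from few reads, was -0.50, -0.43 and -0.45 for rme-2 and 1.16, 0.72 and 0.72 for egg-1. With column number as a replicate block the counts were 7, 7, 7, 0 and 5 of 7, as without it. Of all 20628 features 2497, 1525, 3231, 193 and 3811 were called higher in these fits. With stage and number as a block 0 of 7 were called between dsRIP and total RNA, beside 1016 features higher and 1457 lower.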
